A study of Mus musculus with 18 samples.

Results

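The response of the left ventricle (LV) to 8 h of cold ischemic storage (CIS) was compared with that of the right ventricle (RV) in mouse hearts. For each gene the quantity of interest was the change from 0 h to 8 h in LV minus the change from 0 h to 8 h in RV, which is an interaction of ventricle with storage time. This contrast used 12 of the 18 RNA-seq libraries of the series, 3 each of LV and RV at 0 h and at 8 h. The rule that picked these libraries was their storage time and ventricle, and no measured value entered it. Of 34989 annotated genes, 15093 passed a filter on low counts and were tested.

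All hearts came from mice that the sample labels give as strain C57B/L6 and 12 weeks old, with no sex. The study's methods name the strain C57BL/6J, wild type and of both sexes, and give another age. Each heart was infused with HTK, a cardioplegic preservation solution, and kept on ice in the same solution for 0, 4, or 8 h. It was then perfused for 1 h with Krebs buffer outside the body, after which LV and RV were frozen separately. The 0 h hearts were therefore also arrested, explanted and reperfused, so that storage time is the quantity that separates the 0 h from the 8 h hearts. The study's methods also describe a pressure balloon, placed during perfusion first in RV and then in LV of the same heart. The part of this order in the comparison of ventricles was not tested. There was no blood in the circuit and no recipient, and a library holds the RNA of a whole ventricle wall.

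The genes followed here belong to programs that cells switch on within minutes to hours of stress. Immediate-early genes encode short-lived transcription factors (the FOS and JUN partners of AP-1, the EGR zinc-finger proteins and the NR4A nuclear receptors) whose transcription starts without new protein synthesis, often through serum response factor bound at CArG boxes. NF-kB is held in the cytoplasm until cytokines such as TNF and IL-1 release it, and it then induces chemokines, adhesion molecules and its own inhibitors. Interferons act through STAT2 and IRF9, among other factors, on GAAA-rich elements and induce a large antiviral set. The LV works against systemic pressure and the thinner-walled RV against pulmonary pressure, and both are built from the same cell types.

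The libraries held 22552581 to 46236771 estimated counts, of which 22.7 to 34.4% belonged to mitochondrially encoded genes. LV and RV libraries that share a storage time and a replicate number deviated from their group means together, with Pearson r over all tested genes of 0.325 to 0.697 in the 9 same-numbered pairs and -0.542 to 0.165 in the 18 other pairs. Deviations from a mean of 3 libraries sum to 0, so the low values of the other pairs partly follow from those of same-numbered pairs. They are not separate evidence of the pairing. Ddx3y, a Y-linked gene, was low in both ventricles of the same 3 numbers (0 h replicate 2, 4 h replicate 3, and 8 h replicate 3). It sets 1 number of each time apart and cannot pair the libraries of the other 2. At 8 h it was at 2.44 CPM in LV and 1.56 CPM in RV of replicate 3, against 67.4 to 97.3 CPM in replicates 1 and 2. By this gene each storage time would mix the sexes, which the labels do not give. The 8 h heart of replicate 3, singled out below, would then differ in sex from the other 2, and the part of sex was not tested. Same-numbered libraries were therefore treated as the ventricles of 1 heart, with the heart as a block, and levels below are CPM (counts scaled to the TMM-normalized library size) in the order replicate 1, 2, and 3. Nothing else shows that the 3 hearts of a group are separate experiments. The p-values of the fit with the block measure how LV minus RV varied between these hearts, with a spread estimate shared by all 18 libraries. The spread in level between hearts enters only the fit without the block. In bulk tissue, fewer cells of a type and less RNA per cell cannot be told apart.

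The storage response differed between the ventricles, and in most of the genes that differed it was the RV that responded more. A gene was called when its edgeR quasi-likelihood p, adjusted by Benjamini-Hochberg, was below 0.1 and its fold above 1.5. By this rule the change lay toward RV in 712 genes (4.72% of those tested) and toward LV in 150 (0.994%), 862 in all (5.71%), so that 82.6% of the called genes lay toward RV. An unadjusted p under 0.05 was reached by 3480 genes (23.1%). "Toward RV" means a negative log2 difference, LV change minus RV change. The median difference was -0.90 in the first group and 0.80 in the second, against 0.044 over all tested genes. Without the heart as a block the same test called 0 genes, while 628 genes (4.16%) had an unadjusted p under 0.05. The unpaired standard errors were larger, with a median over the called genes of 0.492 against 0.183 in the paired fit. The smallest unpaired p-value was that of Rnd3, a small GTPase gene named here for that value after it was seen (unadjusted p = 0.000161, edgeR adjusted p = 0.9998). DESeq2 without the block called 2 genes, Rnd3 and Ch25h. The calls therefore rest on same-numbered libraries being 1 heart, which the labels do not state.

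Most of the 712 genes were higher after storage in both ventricles, and further so in RV. By the sign of their fitted changes, 583 (81.9%) were higher at 8 h in both ventricles, 120 (16.9%) were higher in RV and lower in LV, and 9 (1.26%) were lower in both. Tested against 0 h within each ventricle, 612 (86%) rose in RV and 202 (28.4%) rose in LV, where all tested genes gave 14.6% and 4.74%. The median change was 1.66 in RV and 0.65 in LV on the log2 scale. Inside a heart, LV stood above RV at 0 h and below it at 8 h in 616 of the 712 genes (86.5%), and the larger part of the difference arose in the 8 h hearts in 628 (88.2%). The difference between ventricles passed the test in the 8 h hearts for 483 genes and in the 0 h hearts for 47, whereas it passed in neither for 207. Over all tested genes 6.53% were higher in RV and 2.25% higher in LV at 8 h, against 1.01% and 0.835% at 0 h. The 3 within-heart differences at 8 h lay beyond all 3 at 0 h in 685 genes (96.2%), a pattern that 14% of all tested genes showed in the same direction. The genes were called on these same differences. The 96.2% therefore follows from the call. The 86.5%, the 86% that rose in RV, and the larger median change in RV follow from it in part. The 88.2% uses the same differences, and none of these is separate support.

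**Figure D1:**
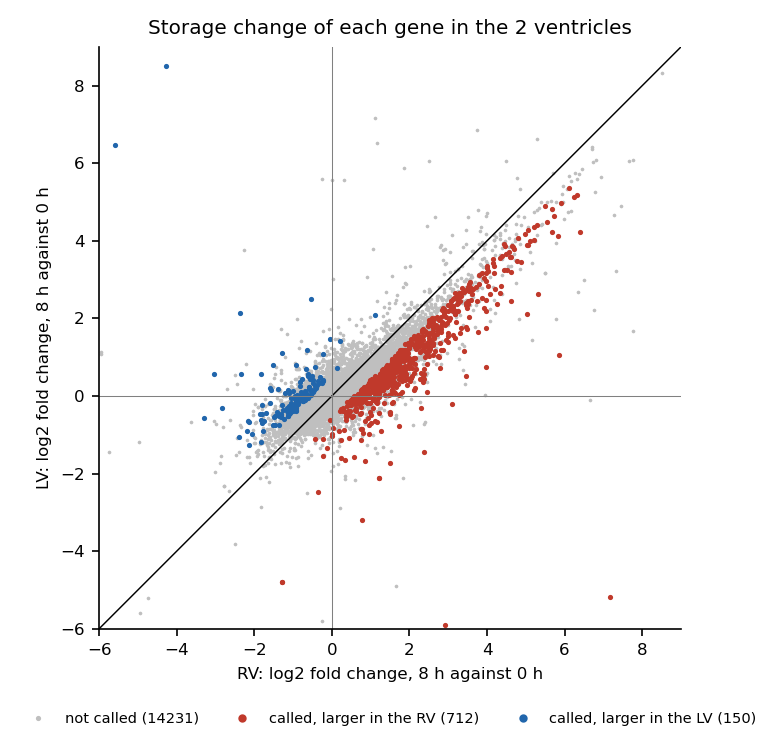
Each point is 1 of the 15093 tested genes, with its log2 fold change from 0 h to 8 h in RV on the horizontal axis and in LV on the vertical axis, and the diagonal marks equal change. The 712 genes called toward RV (red) lie below the diagonal and mostly to the right of 0, the 150 called toward LV (blue) lie above it and mostly to the left of 0, and 15 points, 3 of them called, fall outside the axes.

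Among the 150 genes toward LV, the commonest pattern was a decrease in RV that LV did not match. Only 66 of the 150 (44%) were protein-coding with at least 5 CPM, against 592 of the 712 toward RV (83.1%). By sign, 84 (56%) were lower at 8 h in both ventricles and 63 (42%) were higher in LV and lower in RV. The decrease passed the test in RV for 99 genes (66%, against 7.39% of all tested genes) and in LV for 2 (against 0.822%). Their median change was -0.93 in RV and -0.077 in LV. The 3 within-heart differences did not overlap between the times in 139 of them (92.7%, against 13.4% of all tested genes). This share also follows from the call, which was made on the same differences. The 66% that fell in RV and the lower median change in RV follow from it in part, and none of these is separate support. The number of genes toward LV turned on single hearts more than the RV count did, with 48 to 298 genes when 1 heart was left out against 497 to 846 toward RV. Among the 15 protein-coding genes with the largest differences toward RV, at 5 CPM or more, were Otud1, Nr4a2, Atf3, Ch25h, Fosl1, Fos, Egr3, Btg2, Arc, Dusp6, Il1a, Ccn1, Irs2, and Egr1, of which 9 are members of the immediate-early list described next.

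Immediate-early genes set the ventricles apart more than any other of the 25 lists examined, by share called and by median. All 35 listed genes were tested, 32 were called toward RV against the 4.72% background, and none was called toward LV. The counts of the lists below stand against the same 4.72% toward RV and 0.994% toward LV. The median difference was -1.51 against 0.044 over all tested genes. The 9 AP-1 genes (Fos, Fosb, Fosl1, Fosl2, Jun, Junb, Jund, Atf3, and Maff) were all called, with a median of -1.53, as were the 7 Egr and Nr4a genes, with a median of -1.81. The 19 others, which include MAP kinase phosphatases and Gadd45, Ier, and Klf genes, gave 16 calls and a median of -1.32. The 3 that were not called were Srf, Dusp2, and Dusp4.

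The separation within this list was a rise that RV showed and LV mostly did not. From 0 h to 8 h, 29 of the 35 genes rose in RV and 1 (Myc) in LV, while 2 (Egr3 and Nr4a1) fell in LV. In each of the 3 unstored hearts LV was the higher ventricle, with a median LV minus RV of 0.45, 0.64, and 0.28 on the log2 CPM scale, and in each of the 3 hearts stored for 8 h it was the lower, with medians of -1.28, -1.16, and -0.48. All 3 unstored hearts lay above 0 in 30 genes and all 3 stored hearts below 0 in 33, and 28 genes showed both, against 726 of the 15093 genes tested. The stored heart of replicate 3 had the highest LV minus RV of the 3 in 32 of the 35 genes. Leaving that heart out moved the median from -1.51 to -1.84, and over the 6 fits that leave out 1 heart the median ranged from -1.34 to -1.84, with 24 to 33 members called. Without the block the median was -1.38 and 22 of the 35 genes had an unadjusted p under 0.05, against 4.16% of all genes.

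**Figure D2:**
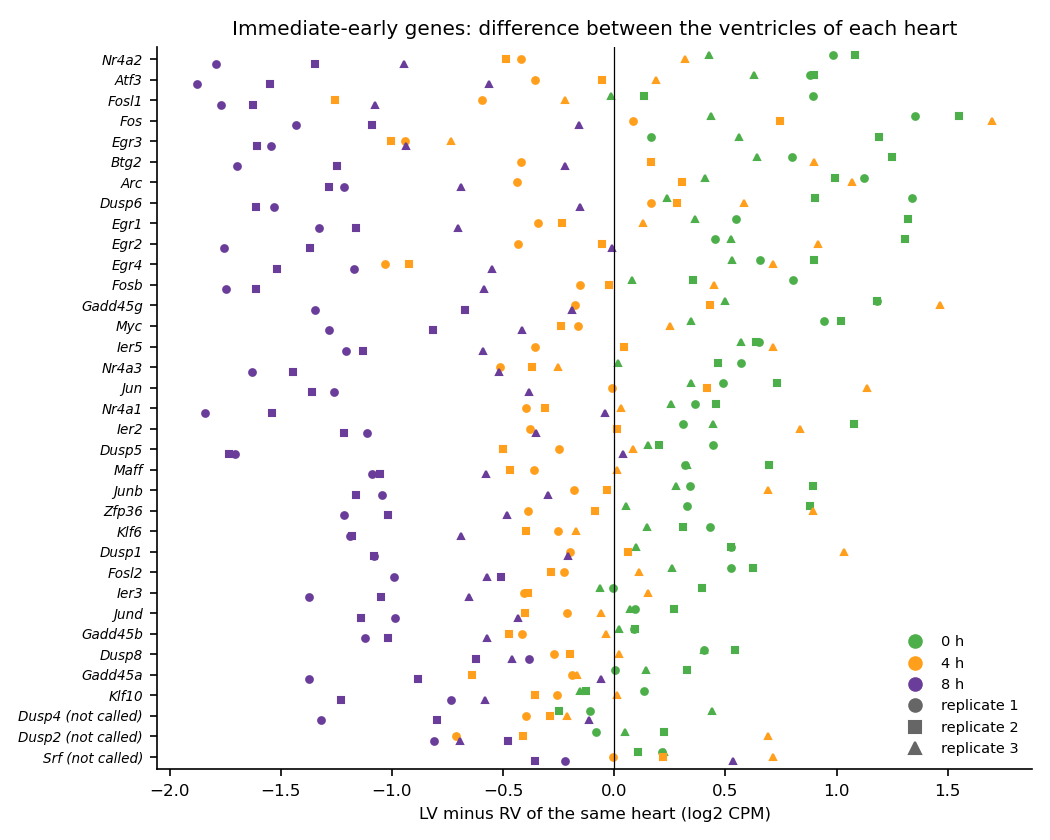
Each point is 1 heart, and the horizontal axis is its LV level minus its RV level (log2 CPM) for the 35 immediate-early genes, ordered from the most negative interaction at the top. Unstored hearts (green) lie mostly right of 0, hearts stored for 8 h (purple) mostly left of 0, and hearts stored for 4 h (orange) on both sides of 0. Replicate 3 at 8 h (purple triangles) is the rightmost of the 3 stored hearts in 32 of the genes.

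Fos, the founding member of AP-1 (chr12:85473890-85477273, GRCm38), was at 529.6, 380.2, and 263 CPM in LV and 207, 129.6, and 194 CPM in RV of the unstored hearts. After 8 h it was at 294, 396, and 956 CPM in LV and 793, 844, and 1068 CPM in RV. The LV libraries of both times overlapped, while every stored RV lay above every unstored RV. The log2 difference in change was -2.01 ± 0.43 (SE, edgeR adjusted p = 0.0195). Atf3, which encodes a stress-induced ATF/CREB factor that pairs with JUN (chr1:191170296-191218039), measured 608, 295, and 204 CPM in LV and 330.1, 158, and 132 CPM in RV at 0 h, and 253, 307, and 939 CPM in LV and 929, 899, and 1386 CPM in RV at 8 h. Again only the RV groups were separate, and replicate 3 was the highest library of both ventricles at 8 h. Its difference was -2.14 ± 0.28 (edgeR adjusted p = 0.00201). Fosl1, a FOS relative that appears later after stimulation, differed by -2.10 ± 0.33 (edgeR adjusted p = 0.00394), and the other AP-1 members ranged from -1.73 for Fosb to -0.998 for Jund, with Jun at -1.52 and Junb at -1.34.

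Nr4a2 encodes an orphan nuclear receptor induced by calcium and cAMP signals (chr2:57106830-57124003). Its LV level was 26.8, 27.9, and 18.5 CPM at 0 h and 8.82, 10.7, and 20.1 CPM at 8 h, and its RV level was 13.5, 13.1, and 13.8 CPM at 0 h and 30.6, 27.2, and 38.9 CPM at 8 h. Every LV exceeded every RV at 0 h and every RV exceeded every LV at 8 h. The difference of -2.19 ± 0.26 had an edgeR adjusted p of 0.00131 with the block and an unadjusted p of 5.18e-04 without it. Egr1, a zinc-finger factor downstream of ERK signaling, was at 1170, 763, and 511 CPM in unstored LV, 799, 305, and 396 CPM in unstored RV, 556, 636, and 1362 CPM in stored LV, and 1396, 1426, and 2214 CPM in stored RV. The stored RV libraries all lay above the stored LV libraries, and those of LV overlapped with the unstored ones. Its difference was -1.81 ± 0.25 (edgeR adjusted p = 0.00243). Egr3 was one of the 2 members that fell in LV (-1.59 on the log2 scale), with 0.24 in RV and a difference of -1.996 ± 0.24, and Nr4a1 was the other, with a change of -1.14 in LV.

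Feedback regulators of the same signals were called as well. Dusp6, a cytoplasmic phosphatase that switches off ERK (chr10:99263231-99267489), was at 27.9, 19.2, and 33.4 CPM in LV and 10.99, 10.2, and 28.3 CPM in RV at 0 h, and at 29.3, 34.3, and 45.4 CPM in LV and 84.8, 105, and 50.6 CPM in RV at 8 h. Stored RV libraries were all above stored LV libraries, although in replicate 3 the gap within the heart was only -0.16 on the log2 scale. The difference was -1.93 ± 0.37 (edgeR adjusted p = 0.0104). The nuclear phosphatases Dusp5 and Dusp1 differed by -1.41 ± 0.39 and -1.18 ± 0.31, the JNK and p38 phosphatase gene Dusp8 by -0.94 ± 0.11, the antiproliferative Btg2 by -1.96 ± 0.38, the synaptic immediate-early gene Arc by -1.95 ± 0.34, and the mRNA-decay factor Zfp36 by -1.32 ± 0.32. Myc was the one listed gene that rose in both ventricles, by 1.19 in LV and 2.85 in RV.

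**Figure D3:**
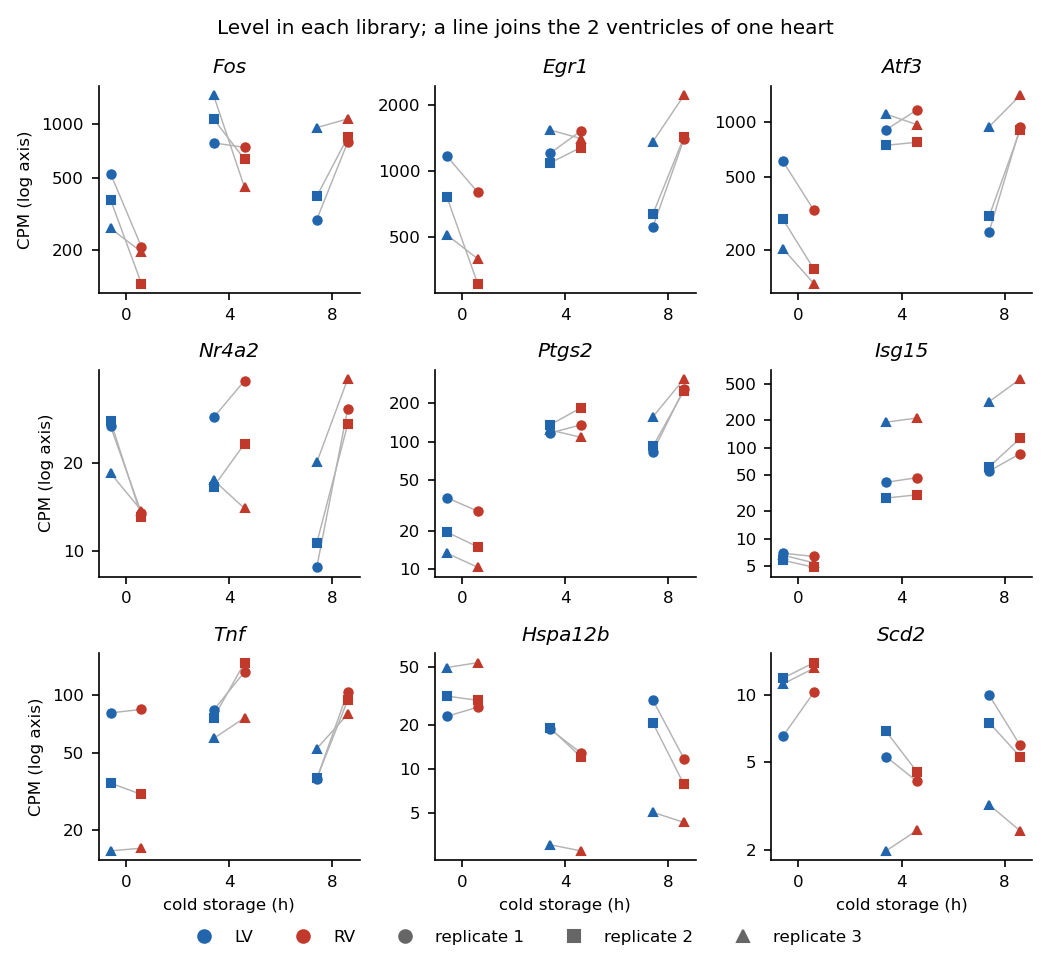
Level of 9 genes in CPM (log axis) in each library against hours of cold storage, with LV in blue, RV in red, a marker shape for each replicate number, and a line joining the 2 ventricles of a heart. For Fos, Egr1, Atf3, and Nr4a2 the lines fall from LV to RV at 0 h and climb at 8 h, for Ptgs2, Isg15, and Tnf they climb at 8 h, and for Hspa12b and Scd2 they fall at 8 h.

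Promoters of the called members were read for the elements these pathways are known to use. A window from 250 bases before to 50 bases after the annotated start was available for 25 of the 32 called immediate-early genes (RefSeq, GRCm38.p6), and 3 of them (Dusp5, Egr2, and Zfp36) held a CArG box on either strand, that is CC and GG around an unbroken run of A and T. Over the whole list, called or not, 7 of 33 promoters from 27 genes (21.2%) had one. Of all promoters searched, 194 of 14277 from 11206 genes did (1.36%). These shares count promoters, and a gene with several starts is counted more than once. Of these called members, the Dusp5 and Zfp36 windows are shown, with the CArG boxes in capitals. They were picked by the most boxes and then by the smallest p of the edgeR test. The Dusp5 window (chr19:53528895-53529194, plus strand) has 2 boxes side by side, and the Zfp36 window (chr7:28379179-28379478, minus strand) has 1 close to the start.
Dusp5: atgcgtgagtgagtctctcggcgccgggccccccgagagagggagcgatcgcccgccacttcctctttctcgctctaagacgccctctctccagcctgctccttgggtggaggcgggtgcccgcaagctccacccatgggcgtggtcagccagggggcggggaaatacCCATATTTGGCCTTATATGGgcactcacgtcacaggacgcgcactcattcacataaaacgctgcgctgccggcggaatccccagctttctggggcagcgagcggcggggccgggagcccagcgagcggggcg
Zfp36: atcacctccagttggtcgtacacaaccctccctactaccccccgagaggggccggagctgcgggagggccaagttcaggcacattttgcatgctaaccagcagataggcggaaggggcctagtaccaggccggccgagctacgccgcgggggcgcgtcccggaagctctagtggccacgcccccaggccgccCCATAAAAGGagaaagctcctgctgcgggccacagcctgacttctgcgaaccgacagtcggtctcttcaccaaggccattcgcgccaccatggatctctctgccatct

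Genes of the TNF and NF-kB response rose in both ventricles and further in RV. Of 35 members tested, 18 were called toward RV and none toward LV, 34 had a difference below 0, and the median was -0.83. Against 0 h, 32 rose in RV and 22 in LV, and within the stored hearts 26 were higher in RV. The median LV minus RV of the stored hearts was -0.94, -0.61, and -0.52. All 5 NF-kB subunit genes were called, with differences of -0.66 for Nfkb1, -0.60 for Nfkb2, -0.996 for Rel, -0.83 for Rela, and -0.68 for Relb.

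Tnfaip3 encodes A20, a ubiquitin-editing enzyme that NF-kB induces and that shuts NF-kB off (chr10:19000910-19015657). It was at 243, 88.6, and 50.1 CPM in LV and 226, 74.8, and 45.9 CPM in RV at 0 h, and at 265, 305, and 568 CPM in LV and 560.1, 577, and 831 CPM in RV at 8 h. Stored and unstored libraries were separate in each ventricle, and the stored RV exceeded the stored LV in each heart. The difference was -1.01 ± 0.15 (edgeR adjusted p = 0.00334). Ptgs2, cyclooxygenase 2 (chr1:150100031-150108227), was at 36.4, 19.5, and 13.3 CPM in LV and 28.5, 14.97, and 10.3 CPM in RV at 0 h, and at 83.5, 91.99, and 157 CPM in LV and 259, 250, and 309 CPM in RV at 8 h. All stored RV libraries lay above all stored LV libraries, and the within-heart differences were 0.35, 0.38, and 0.36 at 0 h against -1.63, -1.44, and -0.98 at 8 h. Its difference was -1.72 ± 0.19 (edgeR adjusted p = 0.00131). Ch25h, cholesterol 25-hydroxylase, had the largest difference of the list at -2.11 ± 0.30 (edgeR adjusted p = 0.00243), with 30.2, 23.6, and 35.9 CPM in stored LV and 69.5, 36.01, and 51.5 CPM in stored RV.

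Of the cytokine genes, Tnf was at 80.7, 34.8, and 15.5 CPM in LV and 84.1, 30.4, and 16.0 CPM in RV at 0 h, and at 36.6, 36.8, and 52.6 CPM in LV and 103, 93.9, and 79.4 CPM in RV at 8 h. Stored RV libraries lay above stored LV libraries, while the unstored ones ranged widely, and neither ventricle's change passed the test (edgeR adjusted p = 0.961 in LV and 0.155 in RV). The paired difference was -1.18 ± 0.22 (edgeR adjusted p = 0.00941). Il6 rose in both ventricles, by 4.24 in LV and 5.67 in RV, from 18.2, 8.95, and 4.85 to 194, 153, and 258 CPM in LV and from 8.36, 5.21, and 5.13 to 339, 247, and 367 CPM in RV. Its difference was -1.33 ± 0.32 (edgeR adjusted p = 0.0317). Il1a, which encodes the IL-1 form that dying cells release, differed by -1.84 ± 0.50 (edgeR adjusted p = 0.0495). The inhibitor of apoptosis gene Birc3, the A20-binding Tnip1, and the ribonuclease gene Zc3h12a differed by -0.88, -0.90, and -1.03.

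Of the 18 called members, 15 had a promoter window and 6 of these (Il1r1, Il6, Nfkb2, Rel, Tnfaip3, and Tnip1) held an NF-kB site on either strand. Over the list, called or not, the share was 14 of 35 promoters from 29 genes (40%), against 758 (5.31%) of all 14277 searched. The Tnip1 window (chr11:54962891-54963190, minus strand) was picked from the called members by the same rule, with the most matches to the site. Its palindromic site, in capitals, gives 3 overlapping matches over both strands.
Tnip1: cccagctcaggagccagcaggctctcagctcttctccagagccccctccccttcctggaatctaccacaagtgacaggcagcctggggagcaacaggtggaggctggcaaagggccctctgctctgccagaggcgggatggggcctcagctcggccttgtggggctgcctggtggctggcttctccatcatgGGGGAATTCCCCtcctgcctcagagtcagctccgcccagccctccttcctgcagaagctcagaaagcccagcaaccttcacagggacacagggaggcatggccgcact

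Chemokine genes and the IL-6 family followed. Among 26 chemokine genes tested, 9 were called toward RV (Ccl2, Ccl3, Ccl4, Ccl7, Ccl21a, Cxcl1, Cxcl2, Cxcl3, and Cxcl16), none toward LV, and the median was -0.59. Cxcl1, a neutrophil attractant (chr5:90891241-90893115), was at 312, 105, and 52.6 CPM in LV and 278, 80.3, and 57.2 CPM in RV at 0 h, and at 355, 329.9, and 481 CPM in LV and 718, 665, and 646 CPM in RV at 8 h, with every stored RV above every stored LV. Its difference was -0.97 ± 0.20 (edgeR adjusted p = 0.0148). Ccl2, the monocyte attractant MCP-1, rose in both ventricles (2.11 in LV and 2.90 in RV) and differed by -0.88 ± 0.18 (edgeR adjusted p = 0.0156), with stored levels of 227, 190.5, and 371 CPM in LV and 469, 351, and 504 CPM in RV. Of 16 genes of the IL-6 family and its gp130 pathway, 7 were called toward RV with a median of -0.58. They were the ligands Il6 and Lif (-1.50 ± 0.36), the oncostatin M receptor Osmr (-0.91 ± 0.17), the kinases Jak2 (-0.69 ± 0.10) and Pim1 (-0.92), the transcription factor Stat3 (-0.77 ± 0.14), and its feedback inhibitor Socs3 (-1.40).

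Interferon-induced genes had the largest storage changes of the lists and a smaller difference between ventricles than immediate-early genes. Of 60 genes tested, 30 were called toward RV and none toward LV, and all 60 differences lay below 0, with a median of -0.67 and a range from -1.50 to -0.068. The median change from 0 h to 8 h was 3.66 in LV and 4.36 in RV, and 33 genes rose in LV and 56 in RV. The called members were 20 of 39 antiviral effectors, 6 of 11 GTPases, 3 of 6 transcription factors (Irf7, Irf9, and Stat2), and the suppressor Socs1. Within the stored hearts the median LV minus RV was -0.27, -0.65, and -0.50. All 3 hearts lay below 0 in 50 of the 60 genes, against 3638 of the 15093 genes tested. These calls depend on how the heart enters the fit and on single hearts. With the heart as a random effect (limma voom) 0 of the 60 genes were called, without 0 h replicate 2 there were 15, and without the block no member had an unadjusted p under 0.05. In the unpaired fit without RV 8 h replicate 3 the median turned to 0.75, a fit in which the LV library of that heart stayed in.

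Isg15, a ubiquitin-like modifier (chr4:156199424-156200818), shows the size of that spread. It was at 6.90, 5.77, and 6.56 CPM in LV and 6.37, 4.84, and 5.42 CPM in RV at 0 h, and at 55.2, 61.6, and 319 CPM in LV and 85.5, 126, and 566 CPM in RV at 8 h. Stored libraries lay far above unstored ones in both ventricles, and replicate 3 was the highest stored library in each, whereas the within-heart differences were close to each other at -0.63, -1.03, and -0.83 (against 0.11, 0.25, and 0.27 at 0 h). The paired difference was -1.04 ± 0.12 (edgeR adjusted p = 0.00131), where the unpaired SE was 1.27. Irgm1, an immunity-related GTPase (chr11:48861968-48871683), was at 15.04, 19.9, and 17.4 CPM in LV and 12.9, 17.4, and 17.1 CPM in RV at 0 h, and at 70.8, 94.9, and 328 CPM in LV and 112, 156, and 500.2 CPM in RV at 8 h. It differed by -0.81 ± 0.10 (edgeR adjusted p = 0.00167). The GTPase genes Gbp6 and Tgtp1 differed by -1.31 ± 0.18 and -0.74 ± 0.11, with reads that near-identical family members share and that the counting divides by estimate, so these 2 values are uncertain.

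Of the 30 called interferon genes, 24 had a promoter window and 16 of these contained the core of an interferon-stimulated response element, 2 copies of GAAA with 2 bases between them, on either strand. The list as a whole, called or not, gave 27 of 50 promoters from 43 genes (54%), against 468 (3.28%) of all promoters searched. The Isg15 window (chr4:156200769-156201068, minus strand) holds 3 overlapping matches, in capitals, upstream of the start.
Isg15: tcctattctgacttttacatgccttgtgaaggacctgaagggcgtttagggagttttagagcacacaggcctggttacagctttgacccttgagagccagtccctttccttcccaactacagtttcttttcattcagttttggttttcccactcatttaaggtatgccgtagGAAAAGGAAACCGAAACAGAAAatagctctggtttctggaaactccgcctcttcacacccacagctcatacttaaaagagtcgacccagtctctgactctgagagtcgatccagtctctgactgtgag

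MHC class I presentation genes are interferon targets too, and 5 of 16 were called toward RV with a median of -0.44. The peptide transporter Tap1 differed by -0.75 ± 0.11 (edgeR adjusted p = 0.00243), and the class I genes H2-K1, H2-Q4, H2-Q6, and H2-Q7 by -0.60, -0.83, -0.98, and -0.75. The H2-Q genes are close copies whose reads cannot be assigned with certainty. Among 22 genes of Toll-like receptors and their adaptors, 2 were called toward RV (against 4.72% of all tested genes, a count near that background), the lipopolysaccharide receptor Tlr4 (-0.77 ± 0.15) and the adaptor Myd88 (-0.84 ± 0.12), and the median was -0.37. The ventricle gap in Tlr4 lay in the unstored hearts, with within-heart values of 0.78, 0.45, and 0.87 at 0 h and -0.087, 0.049, and -0.16 at 8 h.

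**Figure D4:**
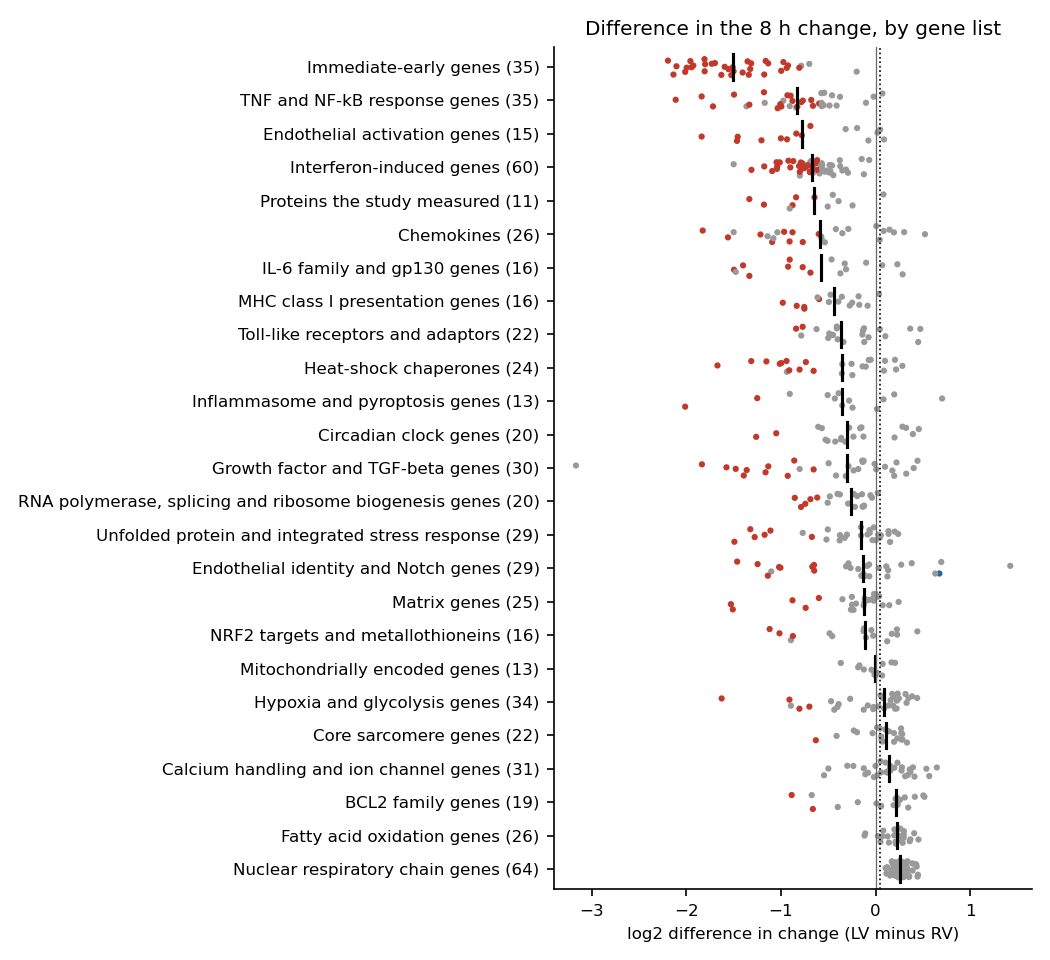
Log2 difference in change (LV minus RV) of each tested gene of 25 lists, with the number of genes in parentheses, the list median as a black bar, and the median of all tested genes as a dotted line. Red points are called toward RV and blue points toward LV, and the lists run from immediate-early genes (median -1.51) to nuclear respiratory chain genes (median 0.26, or 0.16 without 8 h replicate 3).

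Of 15 endothelial activation genes, 9 were called toward RV with a median of -0.78, 6 of 9 in coagulation and fibrinolysis and 3 of 6 in adhesion (Icam1, Sele, and Selp). Plaur, the urokinase receptor (chr7:24462484-24475968), was at 55.9, 14.3, and 7.03 CPM in LV and 40.2, 10.6, and 6.33 CPM in RV at 0 h, and at 103, 63.96, and 149 CPM in LV and 238, 134, and 294 CPM in RV at 8 h. Storage separated the libraries in both ventricles, and LV went from the higher ventricle of each heart to the lower. Its difference was -1.46 ± 0.16 (edgeR adjusted p = 0.00131). Among the other called members, tissue plasminogen activator Plat differed by -0.78 ± 0.12, the thrombin cofactor thrombomodulin Thbd by -1.001 ± 0.13, and the protein C receptor Procr by -1.47.

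Of 29 endothelial identity and Notch genes, 8 were called toward RV and 1 toward LV, and the median was -0.13. The flow-responsive factors Klf2 and Klf4 differed by -1.25 ± 0.25 and -1.46 ± 0.24, the Notch ligand Dll4 by -1.02 ± 0.14, and the transcription factor Sox7 by -1.01 ± 0.11. Dll4 was at 51.6, 47.4, and 47.4 CPM in LV and 37.6, 38.9, and 48.9 CPM in RV at 0 h, and at 24.5, 18.3, and 29.4 CPM in LV and 37.2, 33.3, and 55.05 CPM in RV at 8 h, so that LV libraries separated downward and RV libraries overlapped. A pair of Notch targets went opposite ways, Hes1 toward RV (-1.14) and Hey1 toward LV (0.67). The endothelial marker level itself did not separate, with a mean log2 LV minus RV of 0.24, 0.46, and -0.42 in the 8 h hearts.

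Stress programs inside the cell were read by branch. Of 24 heat-shock chaperone genes, 10 were called toward RV and none toward LV, with a median of -0.36. Dnaja1, an HSP40 co-chaperone (chr4:40722150-40737149), was at 172, 91.03, and 65.4 CPM in LV and 121, 78.3, and 59.7 CPM in RV at 0 h, and at 192, 192, and 552 CPM in LV and 371, 403, and 831 CPM in RV at 8 h. Stored libraries lay above unstored ones in each ventricle and the difference was -1.15 ± 0.16 (edgeR adjusted p = 0.00243). The inducible HSP90 gene Hsp90aa1, the constitutive HSP70 gene Hspa8, and the HSP110 gene Hsph1 differed by -1.01 ± 0.18, -0.66 ± 0.13, and -0.997 ± 0.20. Other called members were Dnajb1 (-1.67) and Hspa1a (-1.31), whose reads are shared with its near-identical copy Hspa1b.

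Of the unfolded protein and integrated stress response, 6 of 13 regulators were called toward RV and 0 of 16 chaperones and enzymes of the endoplasmic reticulum were called in either direction, where the medians were -0.67 and -0.0099. Of all tested genes 4.72% were called toward RV and 5.71% in either direction, so 0 of 16 lies near that share. Ddit3, the proapoptotic factor CHOP (chr10:127290774-127296288), was at 74.6, 32.5, and 31.9 CPM in LV and 50.1, 22.7, and 27.8 CPM in RV at 0 h, and at 29.6, 19.9, and 40.4 CPM in LV and 61.2, 52.3, and 67.6 CPM in RV at 8 h. Every stored RV was above every stored LV. Its difference was -1.49 ± 0.17 (edgeR adjusted p = 0.00131). The translation-controlled factor Atf4 differed by -1.17 ± 0.15, the eIF2-alpha phosphatase subunit Ppp1r15a by -1.32 ± 0.21, the mTORC1 inhibitor Sesn2 by -1.28 ± 0.17, and asparagine synthetase Asns by -1.11. Of 16 NRF2 targets and metallothioneins, 3 were called toward RV (against the same 4.72%), sulfiredoxin Srxn1 (-1.12 ± 0.13), thioredoxin reductase Txnrd1 (-0.87 ± 0.17), and the glutathione synthesis enzyme Gclc (-1.02 ± 0.20).

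Of 34 hypoxia and glycolysis genes, 4 were called toward RV (against 4.72% of all tested genes), none toward LV, and the median was 0.083. These were the monocarboxylate exporter Slc16a3 (-1.63 ± 0.20), the glucose transporter Slc2a1 (-0.70 ± 0.15), the glycolytic regulator Pfkfb3 (-0.81 ± 0.17), and adrenomedullin Adm (-0.91 ± 0.15). Among 18 glycolytic enzymes 1 was called, Pfkfb3. In the clock list 2 of 20 genes were called toward RV, near the 4.72% of all tested genes, Nfil3 (-1.26 ± 0.25) and Bhlhe40 (-1.05 ± 0.34), both of which also respond to stress signals, and the within-heart values of Bhlhe40 at 8 h (-1.49, -0.73, and 0.27) overlapped with those at 0 h (0.54, 0.41, and 0.24).

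Of 30 growth factor and TGF-beta genes, 10 were called toward RV, among them the EGF receptor ligands Hbegf (-1.58 ± 0.18) and Areg (-1.39), Bmp2 (-1.16), Gdf15 (-0.93), and the matricellular YAP targets Ccn1 (-1.83 ± 0.33) and Ccn2 (-1.48 ± 0.24). Ccn1 (chr3:145646976-145649981) was at 643, 369, and 310.3 CPM in LV and 361, 167, and 205 CPM in RV at 0 h, and at 169, 217, and 432 CPM in LV and 423, 569, and 494 CPM in RV at 8 h, with LV libraries of both times overlapping and RV libraries separate. Of 25 matrix genes, 5 were called toward RV, all among 12 proteases and inhibitors, namely the aggrecan-cleaving proteases Adamts1 (-1.51 ± 0.23), Adamts4 (-1.53 ± 0.25), and Adamts9 (-0.60 ± 0.14), the metalloprotease Mmp19 (-0.74), and the inhibitor Timp1 (-0.88 ± 0.22), and of 13 collagens 0 were called (4.72% of all tested genes were called toward RV). Of 20 genes of RNA polymerases, splicing and ribosome biogenesis, 5 nucleolar genes were called toward RV, Ddx21 (-0.69 ± 0.094), Gnl3 (-0.74 ± 0.12), Nop58 (-0.85 ± 0.15), Rrp12 (-0.79 ± 0.11), and Nop56 (-0.62).

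Of 11 genes of inflammation and cell death whose proteins were also assayed, 5 were called toward RV, with a median of -0.65. Among the called genes were Ccl2, Il6, Myd88, and Tnf. These are RNA values. At 8 h the study's western blots gave more TNF, MyD88, and MCP-1 protein in LV than in RV, and IL-6 did not differ. Il1b was at 27.7, 21.8, and 23.6 CPM in stored LV and 71.4, 46.05, and 25.2 CPM in stored RV, with a difference of -0.91 ± 0.33 that did not pass the test (edgeR adjusted p = 0.122). The pore-forming gasdermin gene Gsdmd (-0.39 ± 0.13, edgeR adjusted p = 0.102), the inflammasome sensor Nlrp3 (-0.51 ± 0.28, 0.308), Casp1 (-0.24 ± 0.16, 0.395), Il10 (-0.45 ± 0.65, 0.718), and the adaptor gene Pycard (0.082 ± 0.21, 0.852) did not pass it either.

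In the inflammasome and pyroptosis list 2 of 13 genes were called toward RV, against 4.72% of all tested genes. Casp4 (chr9:5308828-5336783), a caspase that senses intracellular lipopolysaccharide, was at 13.5, 10.6, and 9.02 CPM in LV and 11.9, 7.89, and 7.87 CPM in RV at 0 h, and at 43.4, 48.5, and 146 CPM in LV and 100.2, 92.4, and 263 CPM in RV at 8 h, which gave -1.25 ± 0.14 (edgeR adjusted p = 0.00131). Il18 was called at levels of at most 2.78 CPM (-2.01 ± 0.57, edgeR adjusted p = 0.0592), so its value rests on few counts. Of 19 BCL2 family genes, the antiapoptotic Mcl1 (-0.89 ± 0.11) and the proapoptotic Bcl2l11 (-0.66 ± 0.13) were called toward RV, a count near the 4.72% background, and the list median was 0.21.

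Beyond the lists, Otud1, a deubiquitinase gene (chr2:19657752-19660583), had the largest difference toward RV among the genes named by size. It was at 254, 109.9, and 68.3 CPM in LV and 92.4, 51.4, and 35.5 CPM in RV at 0 h, and at 27.5, 50.3, and 57.8 CPM in LV and 109.8, 164, and 49.5 CPM in RV at 8 h. LV libraries separated downward, RV libraries overlapped, and the within-heart values at 8 h were -1.99, -1.70, and 0.22, of which replicate 3 kept the sign of the unstored hearts. The difference was -2.36 ± 0.45 (edgeR adjusted p = 0.0104). Irs2, which couples the insulin receptor to PI3 kinase, showed a like pattern, with -2.09, -1.77, and 0.25 within the stored hearts and a difference of -1.83 ± 0.48 (edgeR adjusted p = 0.0431).

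Genes toward LV were fewer and their differences smaller. Hspa12b, an HSP70 relative found mainly in endothelium (chr2:131127280-131146321), was at 22.9, 31.5, and 49.3 CPM in LV and 26.5, 29.5, and 53.3 CPM in RV at 0 h, and at 29.5, 20.6, and 5.07 CPM in LV and 11.8, 7.87, and 4.33 CPM in RV at 8 h. All stored RV libraries lay below all unstored RV libraries, and LV libraries overlapped. Its difference was 1.17 ± 0.22 (edgeR adjusted p = 0.0105). Flt3l, the ligand of the FLT3 receptor on dendritic cell precursors (chr7:45129788-45136432), was at 4.81, 3.63, and 2.30 CPM in stored LV and 2.74, 1.47, and 1.70 CPM in stored RV, after 3.59, 8.78, and 9.15 and 4.09, 9.18, and 11.7 CPM without storage, and differed by 1.06 ± 0.23 (edgeR adjusted p = 0.0180). Zkscan8, a zinc-finger gene (chr13:21513222-21531120), had within-heart values of 0.17, -0.19, and 0.14 at 0 h and 1.15, 0.90, and 0.998 at 8 h and a difference of 0.99 ± 0.17 (edgeR adjusted p = 0.00588).

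The other genes named toward LV were the membrane-bound phosphoprotein gene Palm (0.98 ± 0.22), the fatty acid desaturase gene Scd2 (0.95 ± 0.21), the stromal antigen gene Cd248 (0.91 ± 0.22), the hyaluronidase gene Hyal2 (0.89 ± 0.12), the zinc-finger genes Zbtb14 (0.88 ± 0.21) and Zfp251 (0.86 ± 0.18), and Depp1 (0.84 ± 0.25). Scd2 fell in RV from 10.3, 14.1, and 13.3 to 5.95, 5.29, and 2.44 CPM, and its LV levels of 6.55, 11.9, and 11.3 and 10.02, 7.53, and 3.21 CPM overlapped. The within-heart values of Depp1 overlapped between the times (0.21, -0.54, and -0.54 at 0 h and 0.027, 0.77, and 0.95 at 8 h).

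Genes of the contractile and metabolic machinery of cardiomyocytes gave almost no calls, and most of their differences were small and above 0. In the 64 nuclear respiratory chain genes 0 were called in either direction by edgeR with the block (0 also without it). Over all tested genes 5.71% were called with the block. All 64 differences lay above 0, between 0.11 and 0.45, against 8313 of 15093 over all genes. Of the 64, 7 passed the adjusted p toward LV without the fold, against 536 of all 15093. Ndufa6, a complex I subunit (chr15:82350140-82354322), was at 140.4, 126, and 159 CPM in LV and 151, 119, and 173 CPM in RV at 0 h, and at 181, 169, and 179 CPM in LV and 142, 142, and 144 CPM in RV at 8 h, a difference of 0.35 ± 0.10 (edgeR adjusted p = 0.0588). Every stored LV was above every stored RV, and the fold stayed under 1.5. The within-heart medians of this list at 8 h were 0.13, 0.067, and 0.40. Without 8 h replicate 3 the median difference of the list fell from 0.26 to 0.16, and that of all tested genes from 0.044 to 0.0038. Of 26 fatty acid oxidation genes 0 were called and 24 lay above 0 with a median of 0.23, and Cpt1a, the gene of the carnitine shuttle's first enzyme, differed by 0.30 ± 0.098 (edgeR adjusted p = 0.0975). In their within-heart medians at 8 h, -0.05, -0.17, and 0.67, only replicate 3 lay above 0.

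Of 22 sarcomere genes, Myh7, the slow myosin heavy chain (chr14:54970684-54994626), was the 1 called toward RV, a share at the 4.72% background. It was at 175, 123, and 69.1 CPM in LV and 51.5, 40.9, and 32.6 CPM in RV at 0 h, and at 137, 103, and 84.96 CPM in LV and 73.9, 46.6, and 59.4 CPM in RV at 8 h. LV was the higher ventricle of every heart at both times, by 1.76, 1.58, and 1.08 without storage and 0.89, 1.14, and 0.52 after 8 h on the log2 scale, which gave -0.63 ± 0.19 (edgeR adjusted p = 0.0686). Of 31 calcium handling and ion channel genes 0 were called, and the gap junction gene Gja1 passed the adjusted p but not the fold (-0.55 ± 0.14, edgeR adjusted p = 0.0370). The 13 mitochondrially encoded genes gave 0 calls and a median of -0.0051.

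Markers of the cell types in a ventricle wall were read beside these results. Ventricular cardiomyocyte markers summed to 30290 to 71280 CPM in the 12 libraries, and their mean log2 LV minus RV was 0.057, 0.042, and -0.012 at 0 h and 0.076, 0.035, and 0.64 at 8 h (exact permutation test, two-sided p = 0.3, where 0.1 is the smallest p possible with 3 hearts against 3). The RV of 8 h replicate 3 was the library with the lowest sum, and in the same heart the list median of immediate-early genes was nearest to 0 and that of fatty acid oxidation genes farthest from it. Its part in those results was not tested. Neutrophil markers summed to 1.76 to 3.46 CPM at 0 h and to 10.5 to 20 CPM at 8 h, macrophage markers to 144 to 277 and 199.5 to 419 CPM, and atrial markers to 138 to 405 and 131 to 845 CPM. For LV minus RV within hearts, no marker list reached a p under 0.2 between the times (exact permutation p = 0.2 to 1 over 14 lists), while the neutrophil sums themselves did not overlap between 0 h and 8 h in either ventricle. The largest part of each stored sum was Csf3r, at 6.783, 7.999, and 8.999 CPM in LV and 13.3, 11.69, and 14.22 CPM in RV. S100a8 and S100a9 were higher at 8 h too, but at only 0.1334 CPM each in RV of replicate 2. Cxcr2 overlapped between the times in both ventricles, and Ly6g was found only in LV of 8 h replicate 1. Whether neutrophil numbers changed was not tested. Of the single markers, endocardial Nfatc1 (-0.71) and mesothelial Wt1 (-1.17) were called toward RV and endocardial Npr3 (0.80) toward LV. Hand1, a marker of left ventricular myocardium in development, was at most 0.0778 CPM in any library and the related marker Tbx5 did not stand higher in LV, so neither checks the ventricle labels.

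**Figure D5:**
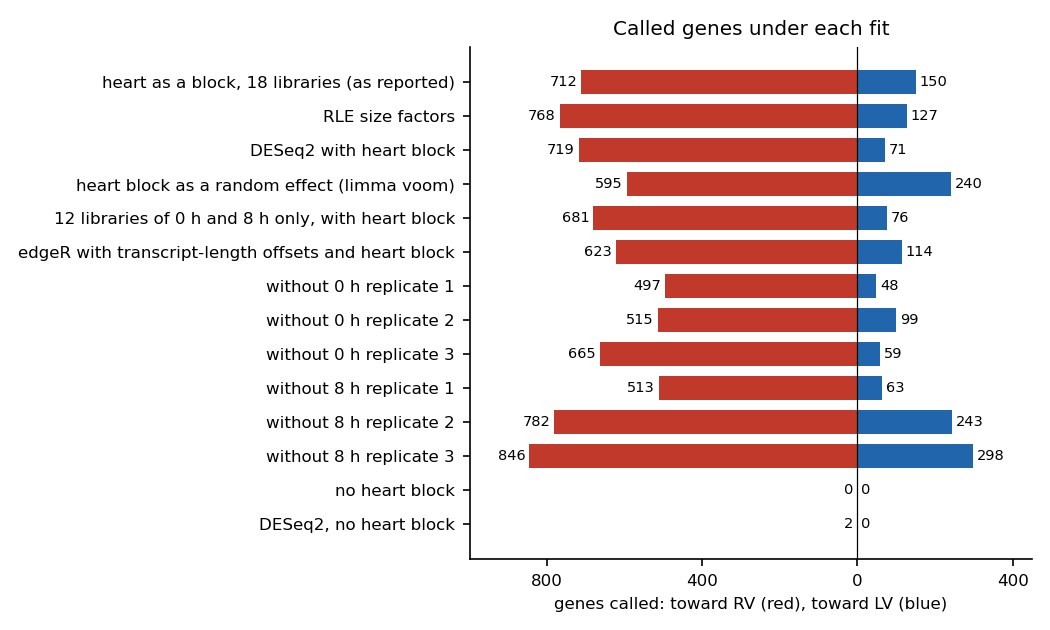
Number of genes called toward RV (red, left) and toward LV (blue, right) in each of 14 fits, with the number at the end of each bar. RV outnumbered LV in every fit that keeps the heart as a block, from 497 against 48 to 846 against 298, and the fits without it call 0 and 2 genes.

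After 4 h, with the same 0 h hearts as reference, 40 genes (0.265%) were called toward RV and 6 (0.0398%) toward LV. The median 4 h difference was -0.49 for immediate-early genes, -0.35 for TNF and NF-kB genes, -0.22 for interferon genes, and 0.0085 over all genes, each nearer to 0 than at 8 h. Ch25h (-1.55, edgeR adjusted p = 0.0961), Plaur (-1.13), Egr3 (-1.53), Dusp8 (-0.60), Sesn2 (-0.96), Srxn1 (-0.69), Casp4 (-0.77), Hbegf (-0.92), and Sox7 (-0.70) were among the members of the lists called toward RV at 4 h, and Hey1 was called toward LV. Because both times share their controls, these values stand side by side and are not independent.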

How the data were processed

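Total RNA of LV and RV was enriched for mRNA and sequenced from directional libraries. Per the file headers and the study's methods, the authors quantified transcripts with kallisto at its default parameters and deposited estimated counts and TPM per transcript and library. TPM was used only to weight transcript lengths in the length-offset alternatives. Estimated counts were summed by gene with GENCODE M21 (GRCm38), to which 110203 of 111462 transcripts matched (0.31 to 0.383% of counts were left out), and rounded.

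Genes were filtered with filterByExpr, scaled by TMM, and fitted with edgeR 4.0.16 in R 4.3.3 over all 18 libraries, with 9 hearts as blocks and an LV effect for each storage time. Storage changes within a ventricle came from group means without the block. Calls needed an adjusted p under 0.1 and a fold over 1.5, the thresholds of the study. Log2 CPM used a prior count of 2. DESeq2 1.42.0 and limma 3.58.1 served as alternatives. Python 3.11.15, numpy 2.4.6, pandas 2.3.3, and scipy 1.17.1 did the rest, and the fit was tested on simulated data. Pairing was taken from the correlation of same-numbered libraries (mean r 0.535), not from a label. The mean of -0.258 for other numbers partly follows from it, since deviations from a group mean cancel.

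Named genes were the 15 toward RV and 10 toward LV with the largest differences among called protein-coding genes at 5 CPM or more, the genes of the proteins the study measured, and the called members of 25 lists (at most the 4 with the smallest p for each list, or the single smallest where none was called), 102 in all, of which a few are not reported here. Further called members of a list are named after their values were seen. The members and lists (638 genes, all matched, 634 tested) were chosen with earlier results of these data known. Counts fix the precision only of library totals, and the spread of LV minus RV between hearts fixes that of each paired difference.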

Additional observations from a re-analysis of the deposited data

Results flagged for a closer look

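The number of genes whose 8 h change differed between the ventricles in the paired edgeR test was 712 toward RV and 150 toward LV. The genes named by the rule that passed the same test and are reported here are listed with their log2 difference in change (LV minus RV), each a difference between the effects of storage in 2 ventricles that was itself tested. No explanation was weighed for any of them.

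Among the largest differences toward RV, the value was -2.36 for Otud1, -2.19 for Nr4a2, -2.14 for Atf3, -2.11 for Ch25h, -2.10 for Fosl1, -2.01 for Fos, -1.996 for Egr3, and -1.96 for Btg2. It was -1.95 for Arc, -1.93 for Dusp6, -1.84 for Il1a, -1.83 for Ccn1, -1.83 for Irs2, and -1.81 for Egr1. Toward LV it was 1.17 for Hspa12b, 1.06 for Flt3l, 0.99 for Zkscan8, 0.98 for Palm, and 0.95 for Scd2, and then 0.91 for Cd248, 0.89 for Hyal2, 0.88 for Zbtb14, 0.86 for Zfp251, and 0.84 for Depp1. In the immediate-early, TNF and NF-kB, and chemokine lists it was -0.94 for Dusp8, -1.31 for Klf6, -1.72 for Ptgs2, -0.88 for Birc3, -1.01 for Tnfaip3, -0.97 for Cxcl1, -0.88 for Ccl2, -0.60 for Cxcl16, and -0.91 for Ccl7. Interferon, MHC class I, and IL-6 family genes gave -1.04 for Isg15, -0.81 for Irgm1, -1.31 for Gbp6, -0.74 for Tgtp1, -0.98 for H2-Q6, -0.75 for Tap1, -0.83 for H2-Q4, and -0.75 for H2-Q7. Further values were -0.69 for Jak2, -0.77 for Stat3, -0.91 for Osmr, and -1.50 for Lif. Endothelial genes gave -1.46 for Plaur, -1.001 for Thbd, -0.78 for Plat, -1.01 for Sox7, -1.02 for Dll4, -1.46 for Klf4, and -1.25 for Klf2. For chaperone, stress response, and NRF2 genes the values were -1.15 for Dnaja1, -1.01 for Hsp90aa1, -0.997 for Hsph1, -0.66 for Hspa8, -1.49 for Ddit3, -1.17 for Atf4, -1.28 for Sesn2, and -1.32 for Ppp1r15a. Further values were -1.12 for Srxn1, -0.87 for Txnrd1, and -1.02 for Gclc. Hypoxia, clock, and sarcomere genes gave -1.63 for Slc16a3, -0.91 for Adm, -0.70 for Slc2a1, -0.81 for Pfkfb3, -1.26 for Nfil3, -1.05 for Bhlhe40, and -0.63 for Myh7. Inflammasome, Toll-like receptor, BCL2, and measured-protein genes gave -1.25 for Casp4, -2.01 for Il18, -0.84 for Myd88, -1.18 for Tnf, -1.33 for Il6, -0.77 for Tlr4, -0.89 for Mcl1, and -0.66 for Bcl2l11. In the matrix, growth factor, and ribosome biogenesis lists the values were -1.51 for Adamts1, -1.53 for Adamts4, -0.60 for Adamts9, -0.88 for Timp1, -1.58 for Hbegf, -0.66 for Skil, and -1.48 for Ccn2. Further values were -0.69 for Ddx21, -0.79 for Rrp12, -0.74 for Gnl3, and -0.85 for Nop58. Of these genes Bhlhe40, Myh7, and Depp1 had within-heart differences that overlapped between 0 h and 8 h, and the others did not.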

How the results depend on the processing

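The difference between ventricles rests on the replicate block. With no replicate block edgeR called 0 genes in either direction and 0 in the immediate-early, TNF and NF-kB, and interferon lists, also with the 12 libraries of 0 h and 8 h alone and without any single library, and DESeq2 with no replicate block called 2 toward RV, 0 toward LV, and 1 TNF and NF-kB gene. The sign was kept for all 862 called genes without the block. Both fits estimate the same contrast from the same 12 libraries, so this is no separate support for the calls. With the heart as a random effect (limma voom) 595 genes were called toward RV and 240 toward LV, and 0 interferon genes. Toward LV there were 76 with the 12 libraries and the block, 71 with DESeq2, 86 with DESeq2 and length offsets, and 70 at an adjusted p under 0.05. Without a fold threshold 1210 and 536 genes were called toward RV and LV. With a fold over 2 these were 278 and 49, with 8 TNF and NF-kB and 7 interferon genes. Leaving out 1 heart gave 497 to 846 genes toward RV, 48 to 298 toward LV, 24 to 33 immediate-early, 13 to 26 TNF and NF-kB, and 15 to 37 interferon genes. Every heart moved the LV count by over 1.5 times: 48, 99, and 59 without 0 h replicate 1, 2, and 3, and 63, 243, and 298 without 8 h replicate 1, 2, and 3. Pycard, not called (0.082), turned to -0.20 and -0.18 with length offsets in DESeq2 and edgeR, -0.13 without 0 h replicate 2, and -0.055 without 8 h replicate 3, in a range of -0.13 to 0.22 over the hearts left out. The cause of these changes was not tested. Size factors, the low-count filter, and mitochondrial genes kept every count within 1.5 times.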

Other observations

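Zinc-finger transcription factor genes were a group chosen after the values were seen, so that no test is given for them. Of 417 tested genes whose symbol begins with Zfp, Zkscan, Zbtb, or Zscan, 284 (68.1%) had a difference above 0, against 8313 (55.1%) of all tested genes, with a median of 0.16 against 0.044. The test called 25 (6%) toward LV and 17 (4.08%) toward RV, where all genes gave 0.994% and 4.72%. Zkscan8, Zbtb14, and Zfp251 are the members named above, and Zfp36, which encodes an mRNA-decay protein and no DNA-binding factor, is among those toward RV.

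Depp1, a stress-induced gene of autophagy control, stood further apart at 4 h than at 8 h. Its LV minus RV within hearts was 0.21, -0.54, and -0.54 at 0 h, 1.65, 1.73, and 1.87 at 4 h, and 0.027, 0.77, and 0.95 at 8 h, and the 4 h difference in change was 2.03 (edgeR adjusted p = 0.0230).

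Over promoters of genes called toward RV, TGACGTCA (searched on both strands) was found in 36 of 668 (5.39%), against 399 (2.79%) of all promoters searched, and TGANTCA in 64 (9.58%), against 786 (5.51%). These are matches of letters in a 300-base window and no test was run on them.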
